A study of Mus musculus with 16 samples.

Results

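Small RNA of exosomes released by the stromal line BFC012 was compared with small RNA of BFC012 cells. Exosomes are small membrane vesicles that cells secrete. BFC012 was derived from C57BL/6 mouse fetal liver at 14.5 dpc (days post coitum), and its label gives it as non-supportive of hematopoietic stem and progenitor cells. The comparison takes 4 of the 16 samples of the series, 2 labelled exosome and 2 labelled cell. The members are the columns of these 2 groups, chosen by label alone. AFT024, a line of the same strain, tissue and age that is labelled supportive, stands beside them with 4 small RNA samples of its own. No genetic change or drug treatment is named for any of these groups, and each line is a single line. Trizol was used to extract the RNA, oligo-dT beads took out the polyA fraction, and small RNA libraries were made from what was left. Exosome RNA from several extractions was pooled and split into technical sequencing replicates, which the authors merged. The deposited table thus has a single merged value for each group. Differences could not be checked against replicates, and no p-values are given.

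A miRNA is a short RNA cut from a hairpin precursor. The precursor's 5′ and 3′ arms (5p and 3p) form a duplex, from which usually 1 arm is loaded into an Argonaute protein while the other is degraded. The loaded miRNA finds its messenger RNA targets mainly through the seed, bases 2 to 8 from its 5′ end, and miRNAs with the same seed form a family. Exosomes carry miRNAs out of the cell, and red cells, platelets and other blood cells also release miRNAs into plasma and serum.

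Of the 724 arms counted below, 548 were matched by name to a mature sequence of RefSeq (GRCm38.p6), as were 1655 of all 2386 listed arms. The sequences below are those on which the results turn, written 5′ to 3′ with the seed in capitals. The first set is the let-7 family, in order of its exosome-over-cell ratio, because its members share a seed and yet had very different ratios.

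let-7f-1-5p: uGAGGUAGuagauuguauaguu

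let-7d-5p: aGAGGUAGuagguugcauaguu

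let-7i-5p: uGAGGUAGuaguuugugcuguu

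let-7e-5p: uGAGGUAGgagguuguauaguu

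let-7a-1-5p: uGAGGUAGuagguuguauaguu

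let-7g-5p: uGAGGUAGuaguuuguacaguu

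miR-98-5p: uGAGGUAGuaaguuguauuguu

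let-7c-1-5p: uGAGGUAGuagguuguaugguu

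let-7b-5p: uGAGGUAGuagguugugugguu

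The next 2 pairs also share a seed within the pair and differed in their ratios.

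miR-10a-5p: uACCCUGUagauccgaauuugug

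miR-10b-5p: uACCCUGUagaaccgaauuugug

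miR-221-3p: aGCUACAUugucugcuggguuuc

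miR-222-3p: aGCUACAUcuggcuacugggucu

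The arms with the most reads in exosomes and in cells come next, followed by the leading arms of blood cells and of the Dlk1-Dio3 cluster on chromosome 12.

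miR-22-3p: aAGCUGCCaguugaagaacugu

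miR-21a-5p: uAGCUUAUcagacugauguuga

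miR-25-3p: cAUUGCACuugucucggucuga

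miR-451a-5p: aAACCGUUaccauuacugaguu

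miR-144-5p: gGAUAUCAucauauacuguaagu

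miR-223-3p: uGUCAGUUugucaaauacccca

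miR-142a-5p: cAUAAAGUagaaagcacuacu

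miR-127-3p: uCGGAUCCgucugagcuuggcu

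miR-409-3p: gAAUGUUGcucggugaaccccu

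miR-494-3p: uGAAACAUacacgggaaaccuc

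miR-412-5p: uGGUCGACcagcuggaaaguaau

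The last set is 3 hairpins whose 2 arms were carried in different proportions.

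miR-152-5p: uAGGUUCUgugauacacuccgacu

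miR-152-3p: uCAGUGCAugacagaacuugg

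miR-28a-5p: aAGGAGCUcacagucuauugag

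miR-28a-3p: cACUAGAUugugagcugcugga

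miR-34b-5p: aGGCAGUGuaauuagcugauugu

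miR-34b-3p: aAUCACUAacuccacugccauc

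The BFC012 exosome group held 1247068 reads on miRNA arms and the BFC012 cell group 17547485. The AFT024 groups held 1120450 and 17293776. The deposited value is a normalised read count, in which 1 read is worth 2.66 in BFC012 exosomes and 0.353 in BFC012 cells. A floor of 3 reads is a value of 7.98 in exosomes and 1.06 in cells. The ratios below are exosome over cell, from whole reads scaled by the deposited size factors. Brackets hold the exact Clopper-Pearson interval at 95%, which, like the floor, covers counting error only. The log2 ratios are of the deposited value plus 1. The depths differed by 14.1-fold and the size factors by 7.54-fold, so that RPM, which scales each library by its own total, would give every ratio 1.87-fold higher, which is 0.90 on the log2 scale. Whether serum was in the culture medium is not stated in the labels.

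The exosomes held a broad set of miRNAs, in proportions that differed from those of the cells. A read was found for 1073 arms in exosomes and 1276 in cells, and 860 arms had a read in both. The 10 leading arms took 46.9% and 52.9% of reads. Of 724 arms with a value of 10 or more in either group, 268 were at least 2-fold higher in exosomes (37.0%) and 248 at least 2-fold lower (34.3%), while the rest were neither. With RPM 386 of 760 arms were higher (50.8%) and 20% were lower, so the balance of the directions rests on the scaling. The counting interval did not reach 1 for 250 of the higher and 224 of the lower arms. The median log2 ratio was -0.08, with a 10th percentile of -3.25 and a 90th of 4.63.

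Many of these calls rest on arms seen well in only 1 group. The minimum took 4 reads in exosomes and 29 in cells. Of the 724 arms, 183 passed it only through the exosomes, of which 171 were higher, and 105 only through the cells, of which 96 were lower. Among the 436 arms that passed in both groups, 97 were higher (22.2%) and 34.9% lower. Among the arms whose value reached 1000 in either group, 48 were higher, 77 lower and 67 neither, with a median log2 ratio of -0.56.

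**Figure D1:**
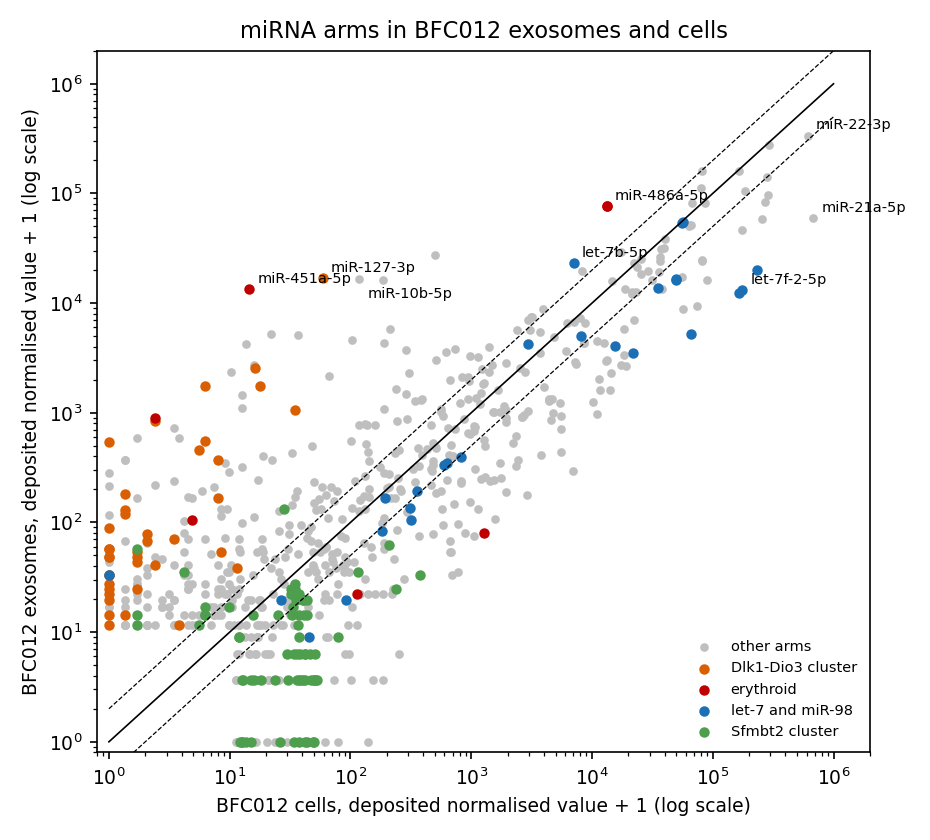
Deposited normalised value plus 1 of 724 miRNA arms in BFC012 cells (x axis) and exosomes (y axis), both on log scales, with 4 lists coloured. The solid line marks equal values and the dashed lines 2-fold. Arms of the Dlk1-Dio3 cluster lie along the left edge, above the line. let-7f-2-5p lies below it and let-7b-5p above it.

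The most abundant exosome miRNA was miR-22-3p, an arm known for its part in cell senescence and heart growth. It had 126642 reads in exosomes and 1734484 in cells, which is 10.2% and 9.88% of reads, and a ratio of 0.550 (0.547 to 0.554). Its share of reads was thus nearly equal, while its scaled level was lower in exosomes. miR-10a-5p, encoded in a Hox gene cluster, followed in exosomes with 103999 reads against 835067, a ratio of 0.939 (0.933 to 0.945). miR-25-3p of the miR-106b cluster had 60510 against 229748 reads, and its share was 4.85% in exosomes and 1.31% in cells. Its ratio was 1.99 (1.97 to 2.00). miR-351-5p, a miR-125 relative on the X chromosome, had 60005 reads against 466777 and a ratio of 0.969 (0.961 to 0.977). The other leading exosome arms spread to both sides. The ratio was 1.39 (1.38 to 1.41) for miR-99b-5p and 1.22 (1.21 to 1.24) for miR-191-5p. It was 0.305 (0.302 to 0.308) for miR-182-5p and 0.337 (0.333 to 0.340) for miR-31-5p.

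The cells were led by another arm. miR-21a-5p, an abundant miRNA of proliferating and injured tissue, had 1925864 reads in cells, 11.0% of the total, and 22359 in exosomes, 1.79%. Its ratio was 0.0875 (0.0864 to 0.0887), the lowest of the 12 arms with the most cell reads apart from let-7i-5p and let-7f-2-5p. Its other arm, miR-21a-3p, stood at a similar ratio of 0.0795 (0.0677 to 0.0926), with 165 against 15656 reads. The hairpin of miR-21a lies at chr11:86584067-86584158 (mm10, minus strand) in an exon of Vmp1. In the polyA libraries the Vmp1 transcript had 227 reads in exosomes and 6800 in cells, a ratio of 0.0973 (0.0849 to 0.111). miR-148a-3p, abundant in liver, had 17317 against 492015 reads and a ratio of 0.265 (0.261 to 0.269).

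The let-7 family, which represses growth and stem cell genes such as Lin28 and Hmga2, was lower in exosomes as a whole. The 5p arms with its seed held 89094 exosome reads, 7.14%, and 2591413 cell reads, 14.8%, a ratio of 0.259 (0.257 to 0.261). The 5p arms of let-7a, let-7c and let-7f are each listed at 2 loci with nearly the same counts. Their reads may thus be counted more than once in these sums and in the counts of arms. Of 26 let-7 and miR-98 arms counted, 15 were lower, 2 higher and 9 neither, beside 34.3% lower and 37.0% higher over all arms. Their median log2 ratio was -1.15, against -0.08 for all arms. With RPM that median is 0.90 higher and no longer past 2-fold.

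Members of the family differed from each other by far more than counting error. let-7f-1-5p had 4631 reads in exosomes and 465418 in cells, a ratio of 0.0750 (0.0729 to 0.0772). let-7d-5p stood at 0.0801 (0.0766 to 0.0838) and let-7i-5p at 0.0860 (0.0841 to 0.0880). At the other end, let-7c-1-5p had 20444 against 161484 reads, a ratio of 0.954 (0.941 to 0.968). The let-7a, let-7b, let-7e, let-7g and let-7k arms were named after their values were seen. let-7a-1-5p had 6063 against 139514 reads and stood at 0.328 (0.319 to 0.336). let-7b-5p had 8684 against 20009 reads and stood at 3.27 (3.19 to 3.36), so it was 1 of the 2 higher arms. The other was let-7k-5p, with 12 reads in exosomes and 0 in cells.

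Several of these arms differ by 1 base. Positions are counted from 1 at the 5′ end. let-7f-1-5p and let-7a-1-5p differ by A12G, let-7a-1-5p and let-7c-1-5p by A19G, and let-7c-1-5p and let-7b-5p by A17G. Along these steps the ratio went from 0.0750 to 0.328, 0.954 and 3.27 in BFC012. In AFT024 it went from 0.0944 to 0.273, 0.418 and 1.02, the same order over a shorter range. These steps were chosen after the values were seen and describe these arms alone. let-7e-5p differs from let-7a-1-5p by U9G and stood at 0.264 (0.2503 to 0.277). Such close sequences can exchange reads through sequencing or mapping errors, and that was not tested. The 2 loci of 1 mature sequence had nearly the same counts, 465418 for let-7f-1-5p and 494190 for let-7f-2-5p in cells. How reads that map to several loci were assigned is not given in the sources used here. In 19 of 25 groups of loci with the same mature sequence, the loci's cell reads lay within 1.1-fold of each other.

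**Figure D2:**
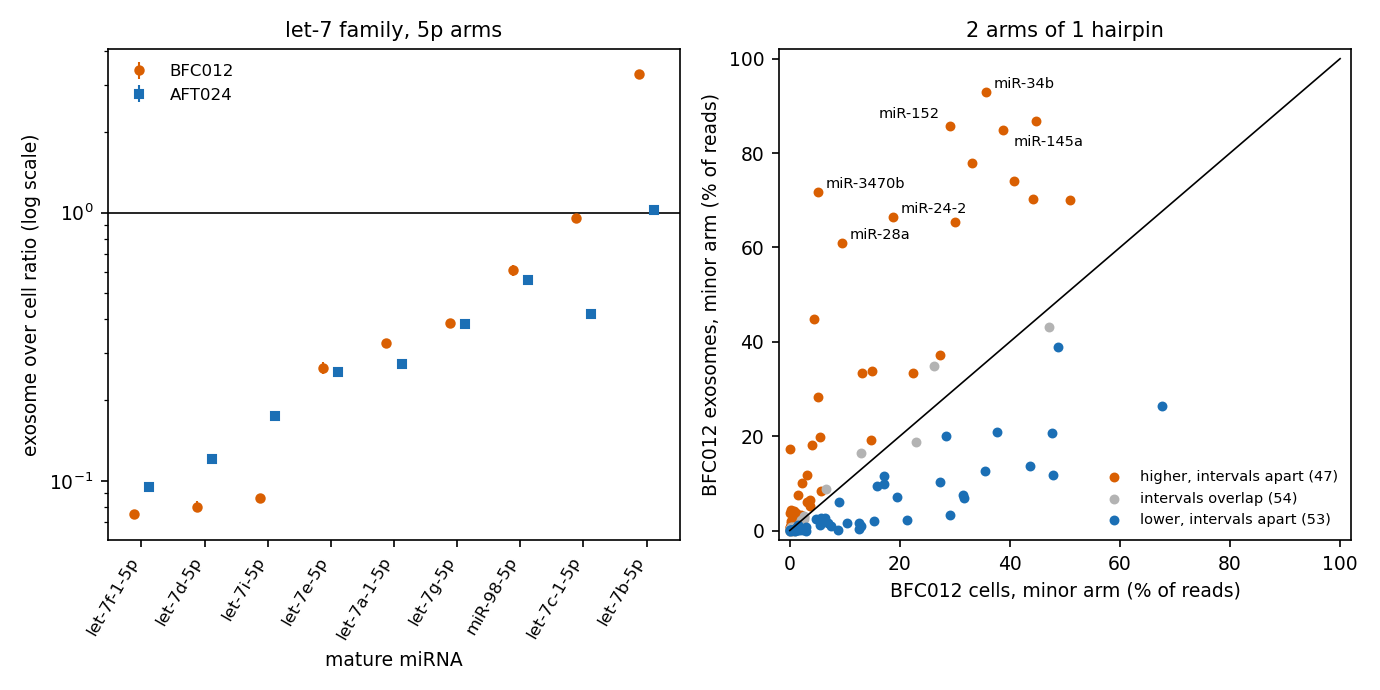
Left, exosome-over-cell ratio (log scale) of let-7 family 5p arms in BFC012 and AFT024, with 95% counting intervals that are mostly smaller than the symbols. Right, share of the minor arm of each hairpin in BFC012 cells (x axis) and exosomes (y axis), in percent of the hairpin's reads. The BFC012 ratios run from 0.0750 for let-7f-1-5p to 3.27 for let-7b-5p, and miR-34b, miR-152 and miR-28a stand far above the diagonal.

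A second pair with a shared seed is encoded in the Hox clusters. miR-10b-5p had 6176 reads in exosomes and 331 in cells, a ratio of 140.7 (125.9 to 158), while miR-10a-5p stood near 1. The mature sequences differ by U12A alone, from miR-10a-5p to miR-10b-5p. In AFT024 exosomes miR-10b-5p had 7363 reads, close to the BFC012 count, against 646 in AFT024 cells. miR-196b-5p, from another Hox cluster, was lower, with a ratio of 0.158 (0.148 to 0.168). Of the 10 arms counted in the miR-10 and miR-196 list 2 were higher, beside 37.0% of all arms, and 1 of these passed only through the exosomes. Lower were 4, near the 34.3% of all arms.

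miR-221-3p and miR-222-3p, neighbours on the X chromosome that target the cell cycle inhibitor p27, share a seed and stood on opposite sides. miR-221-3p had 3350 against 11129 reads, a ratio of 2.27 (2.18 to 2.36). miR-222-3p had 1000 against 54606 reads, a ratio of 0.138 (0.130 to 0.147). Their 5p arms were both lower, at 0.158 (0.110 to 0.221) and 0.202 (0.151 to 0.263).

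The miR-181 family, known from lymphocyte development, split in a like way. miR-181a-1-5p had 2789 against 8851 reads and a ratio of 2.38 (2.28 to 2.48). miR-181b-1-5p, with the same seed, had 339 against 5538 and a ratio of 0.461 (0.412 to 0.515). Of its 9 arms counted 2 were higher and 4 lower, beside 37.0% and 34.3% of all arms.

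The miR-30 family, which targets the snail and ubiquitin conjugation pathways among others, was mostly lower in exosomes. Of 12 arms counted 11 were lower and 0 higher, beside 34.3% and 37.0% of all arms. Their median log2 ratio was -2.43, which with RPM is about 0.90 higher and still past 2-fold. miR-30a-5p had 6155 against 255666 reads, a ratio of 0.181 (0.177 to 0.186). miR-30e-5p stood at 0.127 (0.123 to 0.131). miR-30d-5p was the 1 arm not past 2-fold, with 30563 against 242399 reads and a ratio of 0.951 (0.939 to 0.962).

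Several other families are abundant in stromal cells, and their counts stand beside 34.3% lower and 37.0% higher over all arms. Of 6 miR-148 and miR-152 arms 5 were lower and 1 higher, and of 6 miR-26 arms 4 were lower and 0 higher, with a median log2 ratio of -1.57 that RPM brings within 2-fold, at -0.67. miR-26a-1-5p stood at 0.301 (0.295 to 0.307) and miR-26b-5p at 0.312 (0.299 to 0.326). miR-29 arms, which target collagen transcripts, were lower in 4 of 8 and higher in 2, and both higher arms passed only through the exosomes. Their median of -1.52 became -0.62 with RPM. miR-29b-1-3p had 28 against 2961 reads, a ratio of 0.0713 (0.0473 to 0.103), while miR-29a-3p stood at 0.518 (0.505 to 0.532). The miR-199 and miR-214 arms, markers of mesenchymal cells such as stroma, had 224343 reads in cells and 16691 in exosomes. They were lower in 3 of 8, near the share of all arms, and higher in 0. Their median log2 ratio was -0.84, and 0.06 with RPM. miR-199a-1-3p had 4592 against 60710 reads and a ratio of 0.570 (0.553 to 0.588). Among the smooth muscle arms miR-143-3p stood at 0.228 (0.225 to 0.231), while miR-145a-5p stood at 5.85 (5.44 to 6.28). miR-143-5p had 0 reads in exosomes and 395 in cells, so its exosome level was at most 0.0573 of the cell level.

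Other families lay nearer to 1 or were split. The miR-99, miR-100 and miR-125 list had 12 arms, of which 0 were higher, beside 37.0% of all arms. Lower were 4, near the 34.3% of all arms. miR-125a-5p, a regulator of blood stem cell number, stood at 0.816 (0.804 to 0.828) and miR-100-5p at 0.666 (0.652 to 0.681). miR-16-1-5p, of a family that restrains the cell cycle, stood at 0.769 (0.758 to 0.781). miR-23a-3p and miR-23b-3p were higher, at 2.38 (2.32 to 2.45) and 2.41 (2.31 to 2.52), whereas miR-27a-3p stood at 0.533 (0.521 to 0.546) and miR-27b-3p at 0.573 (0.567 to 0.578). miR-107-3p stood at 2.38 (2.27 to 2.50), and miR-103-1-3p, of the same family, at 1.07 (1.03 to 1.12).

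The miR-17 to miR-92 group, which promotes proliferation, was lower in 13 of 20 arms and higher in 1, beside 34.3% and 37.0% of all arms. Its median log2 ratio was -1.66, and with RPM it was -0.76, no longer past 2-fold. In the cluster at chr14:115043671-115044506 (mm10) 9 of 10 arms were lower and 0 higher. Yet its most abundant arm was near the threshold: miR-92a-1-3p had 53215 against 803375 reads, a ratio of 0.499 (0.495 to 0.504). Its other arm, miR-92a-1-5p, had 111 against 19588 reads, a ratio of 0.0427 (0.0351 to 0.0515). In the paralog cluster at chr5:138165321-138165818 (mm10), in Mcm7, 2 of 6 arms were lower and 0 higher. There miR-93-5p stood at 1.05 (1.02 to 1.07), beside miR-25-3p at 1.99.

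**Figure D3:**
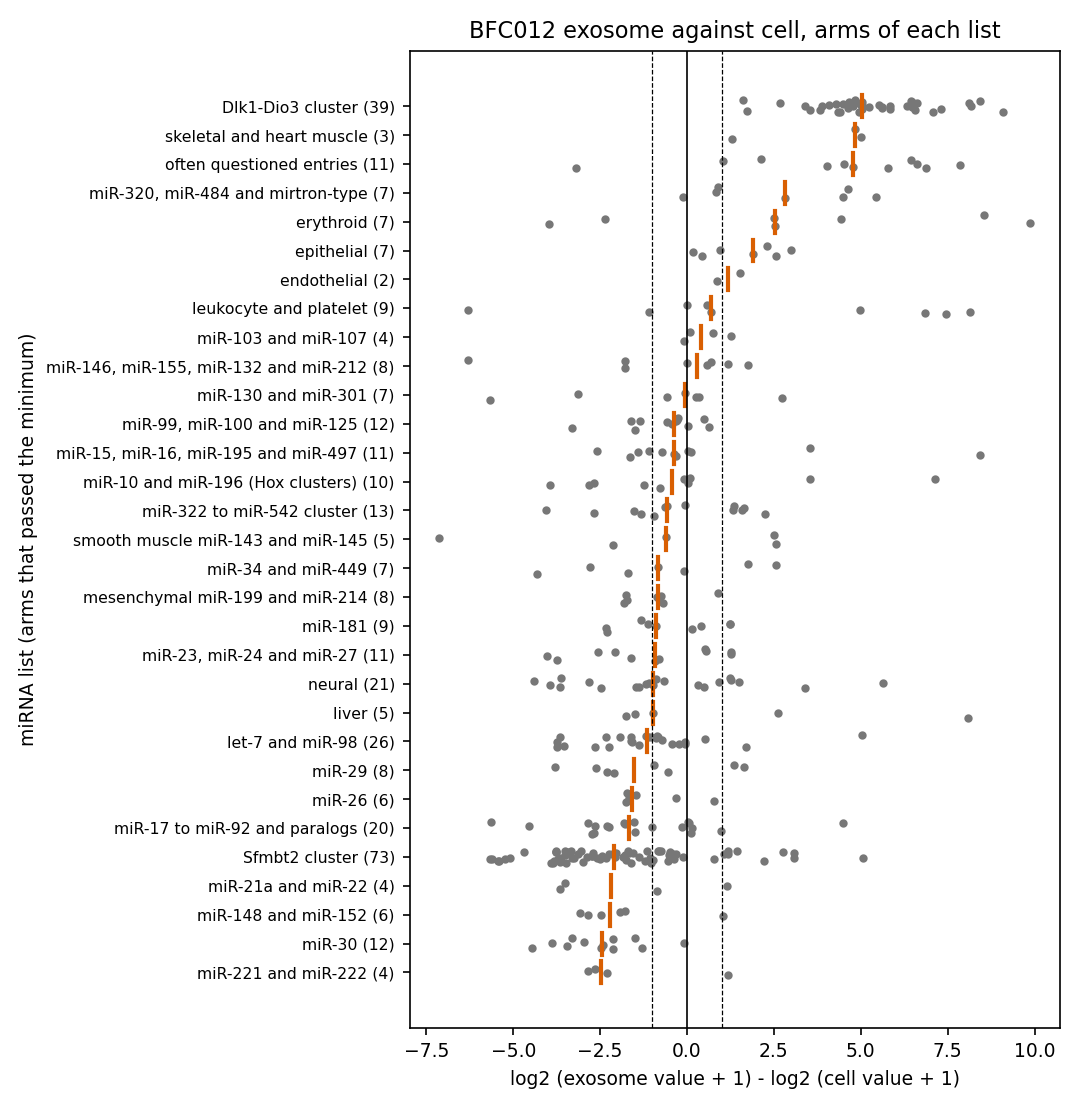
Log2 exosome-over-cell ratio (value plus 1) of the BFC012 arms of each miRNA list, with 1 grey point per arm and the list's median as an orange bar. The number of arms counted is in parentheses, and dashed lines mark 2-fold. The Dlk1-Dio3 list has the highest median, 5.04, and the miR-221 and miR-222 list the lowest, -2.47.

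The most lopsided list was that of the Dlk1-Dio3 cluster, an imprinted region on chromosome 12 whose miRNAs are transcribed from the maternal chromosome together with Meg3. Over all its 118 listed arms BFC012 exosomes had 10696 reads and BFC012 cells 546, a ratio of the summed reads of 147.7 (135.5 to 161). A read was found for 55 of the arms in exosomes and 36 in cells, although the cells were sequenced far deeper. Of the 39 arms that passed the minimum all 39 were higher, beside 37.0% of all arms. However, 34 of them passed only through the exosomes, so that their direction was set by the minimum. The 5 that passed in both groups were also higher, beside 22.2% of all such arms, with a median log2 ratio of 6.62.

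miR-127-3p, an imprinted arm antisense to Rtl1, carried 59.3% of the cluster's exosome reads. It had 6342 reads in exosomes and 164 in cells, a ratio of 292 (250 to 343). miR-369-3p had 972 against 43 reads and a ratio of 170.4 (125.6 to 237). miR-410-3p had 663 against 48 and a ratio of 104 (77.6 to 142.7), and miR-409-3p had 653 against 15 and a ratio of 328 (198 to 590). miR-411-5p had 402 against 95 and a ratio of 31.9 (25.5 to 40.3). miR-494-3p had 313 reads against 4, a ratio of 589.9 (228 to 2179). miR-412-5p had a value of 539.8 in exosomes and 0 reads in cells, which makes it at least 510.1-fold higher. Without miR-127-3p the cluster still had 4354 exosome reads.

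The counted arms lay mostly in 2 groups of hairpins, 9 of them at chr12:109580233-109595388 (mm10) and 26 at chr12:109709060-109743795. Most passed only through the exosomes, so their shared direction is not read as a result. The host transcripts were barely seen in the polyA libraries of the same line. Meg3 had 5 reads in exosomes and 0 in cells, Rian 5 and 8, Mirg 1 and 0, and Rtl1 1 and 1. Dlk1 itself had 5 and 9 reads. These libraries held 16344350 and 35874383 reads.

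The 2 lines had similar exosome levels of these arms and different cell levels. AFT024 exosomes had 13812 reads on the cluster and AFT024 cells 39738. The summed value in exosomes was 1.30-fold higher in AFT024 than in BFC012, while in cells it was 73.5-fold higher. Over 56 arms of the cluster counted in either line, BFC012 exosome levels correlated with AFT024 exosome levels at a Spearman rho of 0.886 (Pearson r of 0.895). With BFC012 cells the rho was 0.563 and with AFT024 cells 0.337. Over all 818 arms counted in either line the same rhos were 0.872, 0.681 and 0.675. The likeness of the cluster's 2 exosome groups is thus near that of all arms, while its rhos with the cells are lower. These arms share their library within each group. For example, miR-409-3p had 653 reads in the exosomes of both lines, but 15 in BFC012 cells and 1093 in AFT024 cells.

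**Figure D4:**
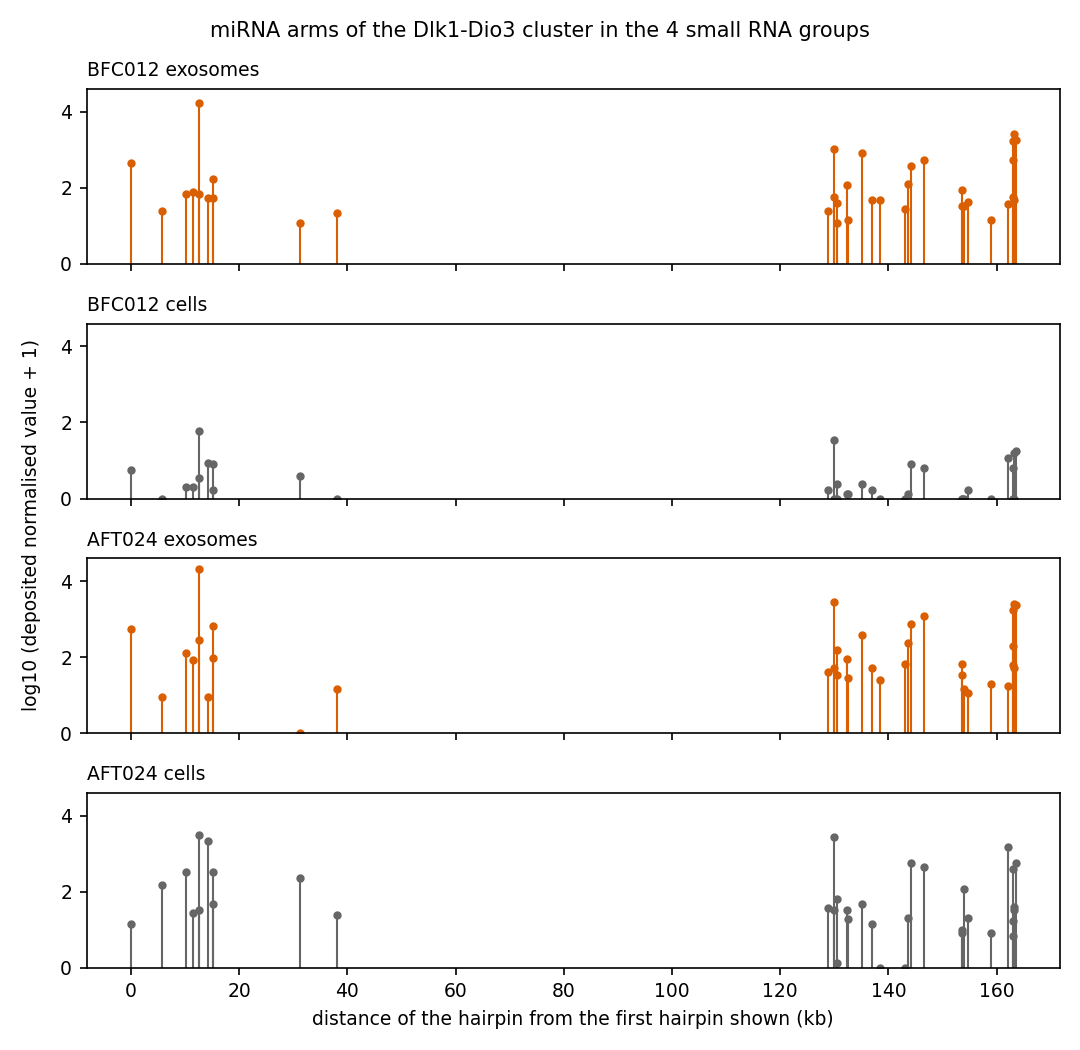
Log10 of the deposited value plus 1 for 37 arms of the Dlk1-Dio3 cluster in each of the 4 small RNA groups, against the distance of the hairpin from the first one shown, in kilobases. Each stem is 1 arm. The 2 exosome panels show similar stems, AFT024 cells show many high stems, and BFC012 cells show few above 1.

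Several arms of blood cells were also higher in BFC012 exosomes, while other arms of the same lists were not. miR-451a-5p, which builds up in red cells and is cut by Argonaute 2 rather than Dicer, had 5080 reads in exosomes and 38 in cells, a ratio of 1008 (733 to 1426). Its neighbour miR-144-5p had 338 against 4 reads, a ratio of 637 (247 to 2352), and miR-144-3p 39 against 11, a ratio of 26.7 (13.4 to 57.9). miR-486a-5p, another red cell miRNA, had 28882 against 37520 reads and a ratio of 5.803 (5.71 to 5.89), and miR-486b-5p had almost the same counts. The 3p arms went the other way. miR-486a-3p had 30 against 3592 reads, a ratio of 0.0630 (0.0424 to 0.0900), and miR-486b-3p stood at 0.189 (0.0809 to 0.377). Of 7 erythroid arms counted, 5 were higher and 2 lower, beside 37.0% and 34.3% of all arms. Of the 5 that passed in both groups, 3 were higher and 2 lower, beside 22.2% and 34.9% of all such arms.

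White cell arms gave a mixed picture. miR-223-3p, a myeloid miRNA, had 105 reads in exosomes and 0 in cells, which makes it at least 264-fold higher. miR-142a-5p, found in all blood lineages, had 1032 against 42 reads, a ratio of 185 (136.1 to 259), and miR-142a-3p 24 against 3, a ratio of 60.3 (18.3 to 313). miR-150-5p, a lymphocyte miRNA, had a value of 1447 against 11.6 and a ratio of 124.3 (87.4 to 182). Other arms of the list lay within 2-fold of the cells or lower. miR-155-5p, with 962 against 7205 reads, stood at 1.01 (0.940 to 1.08), miR-342-3p at 1.49 (1.39 to 1.59) and miR-146a-5p at 1.68 (0.566 to 4.14). miR-342-5p was lower, at 0.469 (0.371 to 0.587), and miR-155-3p had 0 reads in exosomes and a value of 77.9 in cells, at most 0.102 of the cell level. Of 9 arms counted 4 were higher and 2 lower, near the 37.0% and 34.3% of all arms. Of the 5 that passed in both groups 2 were higher and 1 lower, beside 22.2% and 34.9% of all such arms.

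Messenger RNAs of blood cells were at or near 0 in the polyA libraries of both BFC012 groups. The globin genes Hba-a1, Hba-a2, Hbb-bs and Hbb-bt and the heme synthesis gene Alas2 all had 0 reads in exosomes and in cells. The leukocyte gene Ptprc had 1 and 2 reads, Lyz2 1 and 6, Mpo 0 and 2, Cd52 0 in both, and Itgb2 9 and 19. The summed exosome counts of the blood arms were of like size in the other line. The erythroid list had 63081 reads in BFC012 and 74672 in AFT024 exosomes, and the leukocyte list 3836 and 5385. Most of the erythroid reads were on miR-486a, with 28912 and 31227, and miR-486b, with 28712 and 31333. The likeness of the erythroid sums is thus mainly that of these entries. In cells the erythroid list had 79447 and 16335 reads. The source of these arms was not tested.

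Arms typical of other tissues were found too. miR-122-5p, the hepatocyte miRNA, had a value of 367 in exosomes and 1 read in cells, a ratio of 1040.4 (184 to 41387), and 91 and 0 reads in AFT024. Its liver companion miR-192-5p stood at 0.505 (0.480 to 0.531), and 2 of 5 liver arms were higher and 2 lower, beside 37.0% and 34.3% of all arms. Both higher ones passed only through the exosomes. The hepatocyte genes Alb and Afp had 6 and 8 exosome reads against 1 and 34 cell reads, and Ttr and Fga had 0 in both. The muscle arms miR-133a-1-3p and miR-133a-2-3p had 78 and 72 reads against 18 and 14, ratios of 32.7 (19.4 to 58.0) and 38.8 (21.7 to 74.4). Both are loci of miR-133a-3p and passed only through the exosomes, so that their direction was set by the minimum. miR-206-3p stood at 2.59 (1.18 to 5.28).

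Epithelial arms were higher in 4 of 7 and lower in 0, beside 37.0% and 34.3% of all arms, all with low counts. miR-203-3p of keratinocytes had 64 against 96 reads, a ratio of 5.03 (3.60 to 6.97), and miR-375-3p, of endocrine and gut cells, 26 against 31, a ratio of 6.32 (3.61 to 11.0). The endothelial arms miR-126a-5p and miR-126a-3p stood at 2.85 (2.67 to 3.05) and 1.81 (1.51 to 2.16). Neural arms were lower in 10 of 21 and higher in 5, beside 34.3% and 37.0% of all arms. Of the higher arms 4 passed only through the exosomes, so that their direction was set by the minimum. Of the 15 neural arms that passed in both groups 8 were lower and 1 higher, beside 34.9% and 22.2% of all such arms. miR-9-2-5p had 12 against 1981 reads, a ratio of 0.0457 (0.0236 to 0.0800). miR-129-2-3p, which passed only through the exosomes, had 25 against 1, a ratio of 188 (30.9 to 7738).

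The Sfmbt2 cluster, a large rodent group of repeat-rich miRNAs in an intron of Sfmbt2, was mostly lower. Over all 164 listed arms exosomes had 393 reads and cells 9072, a ratio of 0.327 (0.294 to 0.361). Of 73 arms counted 51 were lower and 9 higher, beside 34.3% and 37.0% of all arms, with a median log2 ratio of -2.11. The median arm had 2 reads in exosomes and 96 in cells. Most of the lower arms passed only through the cells, so that their direction was largely set by the minimum. Of the 23 that passed in both groups 12 were lower and 1 higher, beside 34.9% and 22.2% of all such arms. The 1 higher arm was miR-669c-5p, with 49 against 77 reads and a ratio of 4.80 (3.28 to 6.95). miR-467d-5p had 12 against 1057 reads and a ratio of 0.0856 (0.0441 to 0.150). Many of these mature sequences are near-identical, so single arms of the cluster are uncertain.

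Entries whose status as miRNAs is often questioned, since they overlap other abundant RNAs, were mostly higher. Of 11 counted, 10 were higher and 1 lower, beside 37.0% and 34.3% of all arms, but 5 of them passed only through the exosomes. Of the 6 that passed in both groups 5 were higher and 1 lower, beside 22.2% and 34.9% of all such arms, with a median log2 ratio of 4.65. miR-6240-3p had 10330 against 1409 reads, a ratio of 55.3 (52.3 to 58.5), and miR-6240-5p 6103 against 529, a ratio of 87.0 (79.6 to 95.2). miR-2137-3p had 891 against 26 and a ratio of 258 (175 to 398). The 1 lower entry was miR-3968-3p, at 0.108 (0.0916 to 0.127). In AFT024 also 10 of 11 such arms were higher and 1 lower, beside 33.6% higher and 34.8% lower of all 690 arms counted there. miR-3470b-3p, miR-3471-2-3p and miR-335-5p, which are in none of these groups, were likewise among the 15 highest, with 1586 against 36, 271 against 7 and 139 against 1 reads.

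The 2 arms of 1 hairpin were often carried in different proportions. The minor arm is here the arm with fewer reads over the 4 small RNA groups. The cell groups hold most of these reads and so largely set it. It need not be the arm that is degraded. Among hairpins with at least 200 reads in both BFC012 groups, the minor arm's share was higher in exosomes for 47 and lower for 53 with the intervals apart, and for 54 the intervals overlapped. The median share was 1.05% in exosomes and 1.58% in cells. In 12 hairpins the minor arm held over 50% of the exosome reads, against 2 in cells.

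The 6 largest differences in share were all of a minor arm that was higher in exosomes. In miR-152, a relative of miR-148 that targets DNA methyltransferase 1, the 3p arm held 85.7% (83.2% to 88.0%) of exosome reads and 29.1% (28.2% to 30.01%) of cell reads. In miR-34b, a p53 target, the 3p arm held 92.8% (91.3% to 94.2%) and 35.6% (34.5% to 36.7%). In miR-28a, which lies in an intron of Lpp, the 3p arm held 61.0% (58.5% to 63.4%) and 9.45% (9.15% to 9.75%). In miR-24-2 the 3p arm held 66.4% and 18.7%, in miR-145a the 5p arm 85.0% and 38.7%, and in miR-3470b the 3p arm 71.7% and 5.03%. For miR-28a this came with a miR-28a-3p ratio of 2.07 (1.92 to 2.22) beside a miR-28a-5p ratio of 0.138 (0.127 to 0.149). In AFT024 the same arm held 57.3% of exosome and 8.79% of cell reads in miR-28a, 77.5% and 35.9% in miR-152 and 61.1% and 35.9% in miR-34b. It held 70% and 39.9% in miR-145a and 36.8% and 4.02% in miR-3470b. In miR-24-2 it held 31.8% and 28.0%, a difference of 3.80 percentage points against 47.7 in BFC012. Of the hairpins that passed in both lines 101 differed in the same direction (73.2%), 26 in the opposite one, and 11 had equal shares in at least 1 line.

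Over all counted arms, 3p arms stood higher than 5p arms. Of 373 counted 3p arms 42.4% were higher and 27.3% lower, and their median log2 ratio was 0.48. Of the 5p arms 31.3% were higher and 41.6% lower, and their median was -0.51. These counts include the 183 arms that passed only through the exosomes and the 105 only through the cells. For most of those the minimum set the direction. The 39 Dlk1-Dio3 arms, all higher, are also included. The difference is not given for the arms that passed in both groups. Major and minor arms had medians of -0.05 and -0.25.

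Sequence features were compared over 516 distinct mature sequences, of which 38.4% were higher and 30.6% lower. GGAG, a motif that has been tied to exosome sorting, was searched in the mature strand alone. It was in 48 of them, of which 17 were higher and 13 lower, a share of 35.4% higher. CCCU, another such motif, was in 51, of which 27 were higher and 9 lower, a share of 52.9%. Of all 1674 mature sequences 14.2% held GGAG and 11.4% CCCU. By G and C content the result was not uniform. Among sequences with over 54.5% G and C, whose median log2 ratio was 0.94, CCCU was in 31, and 58.1% of these and 46.6% of the others were higher. In those with at most 45.5%, whose median was -0.31, it was in 12, and 58.3% and 34.5% were higher. In those between, CCCU was in 8, of which 2 were higher (25%), against 32% of the others. Across sequences the Spearman rho of G and C content with the log2 ratio was 0.153. Family members share most of their bases, so these sequences are not independent.

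The ratios of arms and of their host transcripts showed little relation. Of 131 arms in an intron of a single gene with at least 20 polyA reads in the 2 BFC012 groups, the Spearman rho between the log2 ratios of arm and host was -0.01 (Pearson r of 0.01). Where arm and host were both past 2-fold, 20 went in the same direction and 18 in the opposite one. let-7g-5p, in an intron of Wdr82, was lower at 0.386 (0.376 to 0.397), while Wdr82 stood at 2.65 (2.57 to 2.74).

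The exosome-over-cell ratios were alike in the 2 lines. These comparisons share no library, but the size factors were set over all 4 groups. Over 596 arms counted in both lines the Spearman rho was 0.794 (Pearson r of 0.788), and over the 557 outside the Dlk1-Dio3 cluster it was 0.822 (0.861). Of these arms 161 were higher in both, which is 75.9% of those higher in BFC012 and 83.9% of those higher in AFT024. Those lower in both lines were 71.5% of the arms lower in BFC012 and 70.1% of those lower in AFT024. Only 16 were past 2-fold in opposite directions.

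Several families stood apart in BFC012 by their summed reads. The miR-146, miR-155, miR-132 and miR-212 list had a ratio of 1.45 (1.40 to 1.499) in BFC012 and 0.294 (0.275 to 0.315) in AFT024. miR-146b-5p, an NF-κB target, had 2067 against 10442 reads in BFC012 and a ratio of 1.49 (1.42 to 1.56). In AFT024 its ratio was 0.0656 (0.0537 to 0.0794). The miR-181 list stood at 1.45 (1.41 to 1.48) and 0.527 (0.517 to 0.537). The miR-221 and miR-222 list went the other way, at 0.482 (0.467 to 0.497) and 1.42 (1.40 to 1.44). These intervals lie apart by counting error, and with 1 merged value per group the difference between the lines was not tested.

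**Figure D5:**
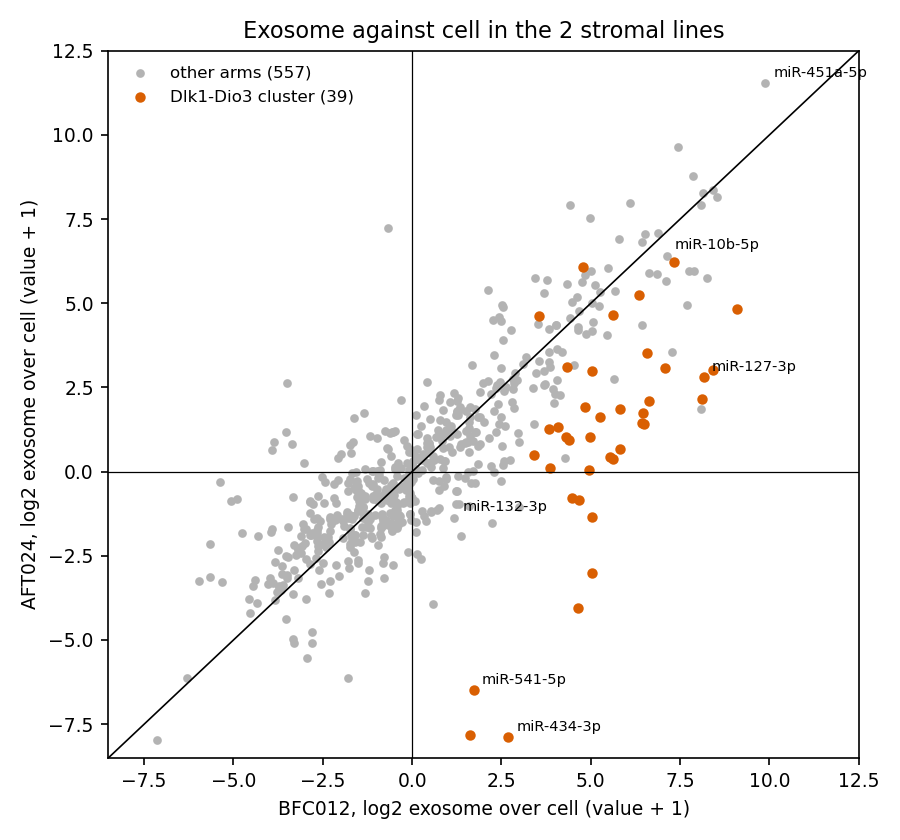
Log2 exosome-over-cell ratio (value plus 1) of 596 arms in BFC012 (x axis) and AFT024 (y axis), with the diagonal marking equal ratios. Most arms lie along the diagonal, and 37 of the 39 Dlk1-Dio3 arms lie to its lower right, down to miR-434-3p, which had 20 against 21 reads in BFC012 and 3 against 6002 in AFT024.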

How the data were processed

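Small RNA of BFC012 exosomes and cells was analysed from the deposited table of all small RNA groups, with 1 merged value per group. Its unit is a normalised signal: the authors divided each arm's reads by the size factor of its group, chosen over all 4 small RNA groups together. Per the submitters' processing notes TopHat, Cufflinks and Bowtie were used with the build mm10. Not given in the sources used here are the counting tool, the annotation and the treatment of reads that map to several loci. Each value divided by its column's smallest positive value was a whole number within 0.01 reads for 100% of values, and these whole reads were used for all ratios. Reads of BFC012 polyA transcripts were recovered in the same way from the authors' deposited table of other values (normalised reads). Entries with the same gene symbol were summed. The authors' p-values, q-values and fold changes were not used.

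Arms with a value of 10 or more in either group were counted, as 2-fold higher or lower on log2 of the value plus 1. Count models were not fitted, since each group is 1 value. Ratios have exact Clopper-Pearson 95% intervals from the split of an arm's reads, and a fold against 0 reads uses a floor of 3 reads. The depth is 1247068 and 17547485 reads, and the same proportions limit an exosome arm more than a cell arm. Named arms were the 12 with the most reads in each group, the 15 highest and 15 lowest ratios with a value of 100 or more and at least 10 reads, and up to 6 per list. They also include all counted arms of the blood and cell type lists and the arms of the 6 hairpins whose minor arm changed most. Other names were chosen after their values were seen. The members and the 31 lists were chosen with earlier results of these data known. Hosts and clusters (hairpins within 10 kb) were placed on mm10. Alternatives covered scaling, pseudocount, filter, threshold and 1 arm per mature sequence. Ratios and intervals were tested on simulated data. Python 3.11.15, NumPy 2.4.6, pandas 2.3.3, SciPy 1.17.1 and Matplotlib 3.10.9 were used.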

Additional observations from a re-analysis of the deposited data

Results flagged for a closer look

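10 arms were past 2-fold in opposite directions in the 2 lines with both counting intervals clear of 1. This difference was not tested, since each group is 1 merged value. The log2 exosome-over-cell ratio in BFC012 and AFT024 was 2.69 and -7.89 for miR-434-3p, 1.72 and -6.48 for miR-541-5p and 4.64 and -4.04 for miR-540-3p. It was 5.04 and -3.02 for miR-134-5p and 5.03 and -1.35 for miR-431-5p, which makes 5 arms of the Dlk1-Dio3 cluster. For the neighbours miR-503-5p and miR-542-5p on the X chromosome it was 2.23 and -1.52, and 1.36 and -1.90. It was 1.18 and -1.37 for miR-132-3p, 2.998 and -1.05 for miR-205-5p, and 1.58 and -1.02 for miR-425-3p.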

How the results depend on the processing

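No paired analysis was possible because the table holds 1 merged value per group, which also means that no replicate could be left out. Against 37.0% of 724 arms higher and 34.3% lower, RPM gave 50.8% and 20% of 760 and no filter 35.7% and 29.6% of 1489. A value of 100 or more gave 31.6% and 35.7% of 361, and a mean of 50 or more 30.1% and 35.4% of 396. A 4-fold threshold gave 26.7% and 21.4%. Size factors set over the 2 BFC012 groups alone, either other pseudocount, 1 arm per mature sequence and the interval rule each kept both counts within 1.5 times. Of the arms named by the rule 79 were lower, and 50 with RPM. Of the 31 lists 9 had a median at least 2-fold lower, and 5 with RPM. Among 2 alternatives chosen after seeing the data, a value of 10 or more in both groups gave 22.2% and 34.9% of 436. The other left out the blood, cell type, questioned and Dlk1-Dio3 lists and gave 31.5% and 37.3% of 620. No list median past 2-fold changed its direction under the alternatives run for it. For a named arm past 2-fold these alternatives could not change it, since RPM, the largest shift, adds 0.90 to each log2 ratio. Over all these alternatives 233 named-arm values moved by more than their counting interval allows and 603 did not. Of the list medians 61 moved past a set margin and 187 did not. Both other settings for the 2 arms of a hairpin kept the counts of higher and lower shares within 1.5 times. The 14.1-fold smaller depth of the exosomes limits arms under 4 reads there.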
